A study of Homo sapiens with 10 samples.

Results

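Among the transcripts that stood far above the untreated level in A549 cells given wild-type interferon gamma (IFNG), 70 stood nearly as high in 1 library of cells given GIFN4 in its place. They are 70 lines of the deposited files, each the record of 1 gene. These lines, of 20812 in all, were chosen on the letter A libraries: a log2 ratio to untreated cells of at least 2 (a 4-fold rise) under wild-type IFNG, and a GIFN4 log2 ratio of at least 0.8 of the wild type one. Another 156 lines passed the first condition and not the second, so 226 lines were induced in letter A. Both conditions use letter A alone. The results below are therefore read in the letter B libraries, which had no part in the choice.

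A549 is a human lung cancer cell line. The cells were left untreated or given wild-type IFNG, GIFN2, GIFN3 or GIFN4 for 48 h, and the series title calls these 3 analogues partial agonists. All 4 proteins carry the same dose entry, 62 nM, but a decimal point with nothing behind it means that the number may be cut short. Each of the 5 groups had 1 library lettered A and 1 lettered B, described as biological replicates, which makes 10 libraries. Nothing in the labels says whether cultures with the same letter were handled together.

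IFNG is a cytokine made mainly by T cells and natural killer cells. It binds the IFNGR1 and IFNGR2 receptor chains, and the kinases attached to them start a signal to the nucleus that switches on genes of antigen presentation, chemokine release and host defence. In epithelial tumour cells the same signal also raises immune checkpoint ligands. A partial agonist is a ligand that occupies the receptor but gives less than the full response, and target genes of one pathway can differ in how much signal they need.

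The files hold log2 ratios of each treated library over its letter's untreated library. The 4 ratios of a letter therefore share 1 untreated library, which cancels in a difference between proteins of the same letter. Names and values of a line could not be paired. The wild type A values never rose from a line to the next (0 steps), while the names beside them ran alphabetically at 99.6% of the first 450 lines, and the names of 6 known IFNG target genes all stood beside a 0 in all 8 treated libraries. Each line is thus a gene of unknown name, given by its position in the files, and its function cannot be stated. Where 4 values of a line are given together, their order is wild type, GIFN2, GIFN3 and GIFN4. Treated libraries had 12835 to 13137 lines not at 0, and the depth of the treated libraries relative to the untreated one of their letter ran from 0.881 to 1.27. The lines tested are the 13276 that were not at 0 in 2 or more treated libraries, and all 70 members were among them.

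In letter A, as a description of the choice, the members' wild type log2 ratios ran from 2.003 to 6.52 with a median of 2.45, and their GIFN4 ratios from 1.64 to 5.66 with a median of 2.48. At the edge of the first condition stood lines 225, 224 and 223 inside (wild type A of 2.003, 2.006 and 2.007) and lines 227, 234 and 238 outside (1.996, 1.98 and 1.96). At the edge of the second stood lines 14, 188 and 134 inside (80.2%, 80.3% and 80.5% of the wild type log2 ratio) and lines 56, 43 and 22 outside (79.7%, 79.4% and 79.1%). In letter B the 3 lines just outside the second condition kept 83.6%, 77.4% and 90.4%, and the 3 just inside kept 76.0%, 71.0% and 71.6%. The 2 sides of that edge were thus not kept apart by letter B.

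The members stood above the untreated level in letter B as well. Under wild-type IFNG their log2 ratios in B ran from 0.47 to 6.91 with a median of 2.55, and 53 of the 70 again stood at 2 or more, where 1.69% of all lines tested did. A level at least 2-fold above untreated was found in 67 members, against 6.71% of the lines tested. Under GIFN2 the ratios ran from 0.14 to 6.19 (median 2.45), and 65 members stood at least 2-fold above untreated, against 5.85% of the lines tested. Under GIFN3 they ran from 0.02 to 6.69 (median 2.46), and again 65 members stood at least 2-fold above, against 5.76%. Under GIFN4 they ran from 0.15 to 6.14 (median 2.18), with 64 members at least 2-fold above, against 5.08%, and 43 at least 4-fold above, against 0.934%. None of the 70 stood below its untreated level under any of the 4 proteins in B. Of the 13276 lines tested, 6276 (wild type), 6010 (GIFN2), 6173 (GIFN3) and 6303 (GIFN4) stood above untreated B. Among the 156 other induced lines, 156, 152, 154 and 152 did so, in the same order. A rise that was present again in B was not particular to the members. Of the 156 other induced lines, 155 stood at least 2-fold above untreated B with wild-type IFNG, and 130 at least 4-fold above. With GIFN2 150 of them were at least 2-fold above, with GIFN3 147 and with GIFN4 131. At least 4-fold above with GIFN4 were 76 of the 156. With 1 library per protein outside the choice, these are values and counts with no test.

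**Figure D1:**
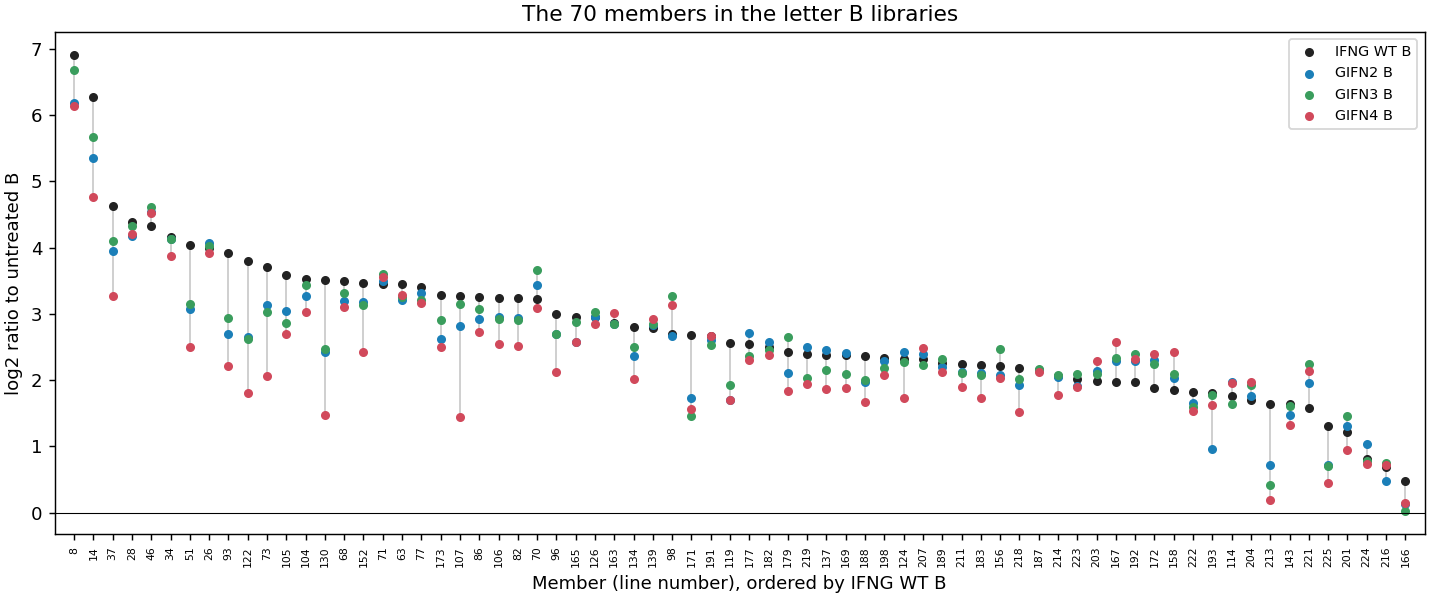
Log2 ratio to untreated B (vertical axis) of each of the 70 members (horizontal axis, line numbers ordered by IFNG WT B) in the 4 treated letter B libraries, with a grey bar over the range of the 4. GIFN4 is the lowest of the 4 in 48 members, and the 4 values lie within 0.5 of each other in 33. Of the 13276 lines tested, GIFN4 is the lowest in 3660, and the 4 values lie within 0.5 in 8816.

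The share of the wild type response kept under GIFN4 was lower in letter B than the choice in letter A alone would show. GIFN4 B stood at a median of 86.7% of the wild type B log2 ratio over the members (quartiles 74.8% and 97.7%, range 12.1% to 135%), compared with 93.8% in letter A, where 80% was the condition. Of the 70 members, 42 kept at least 0.8 in B, and 15 of these reached the wild type value or passed it. A further 22 kept 0.5 to 0.8, and 6 kept less than 0.5. The description of these lines as largely kept thus held for 60.0% of them in the library that did not choose them. The other 156 induced lines had a median of 60.9% in B, with 22 of them at 0.8 or more and 43 under 0.5.

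**Figure D2:**
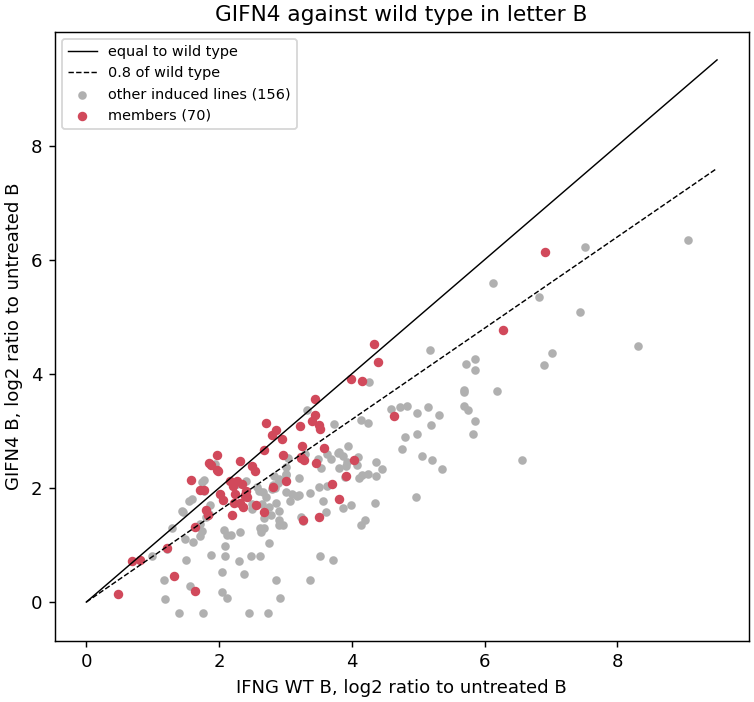
GIFN4 B (vertical axis) against IFNG WT B (horizontal axis), both as log2 ratios to untreated B, for the 70 members and the 156 other lines induced in letter A. The solid line marks equal values and the dashed line 0.8 of wild type, and 42 members and 22 other lines lie on or above the dashed line.

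GIFN2 and GIFN3 also stood near wild type in the members. GIFN2 B was at a median of 94.8% of the wild type B log2 ratio, with 58 members at 0.8 or more, and GIFN3 B at 95.6%, with 60 members. Among the other induced lines the medians were 79.9% for GIFN2, with 77 of 156 at 0.8 or more, and 81.2% for GIFN3, with 88. Lines chosen on GIFN4 thus also had higher median shares than the other lines under GIFN2 and GIFN3, which the rule did not read. All 3 shares of a line divide by the same wild type library.

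**Figure D3:**
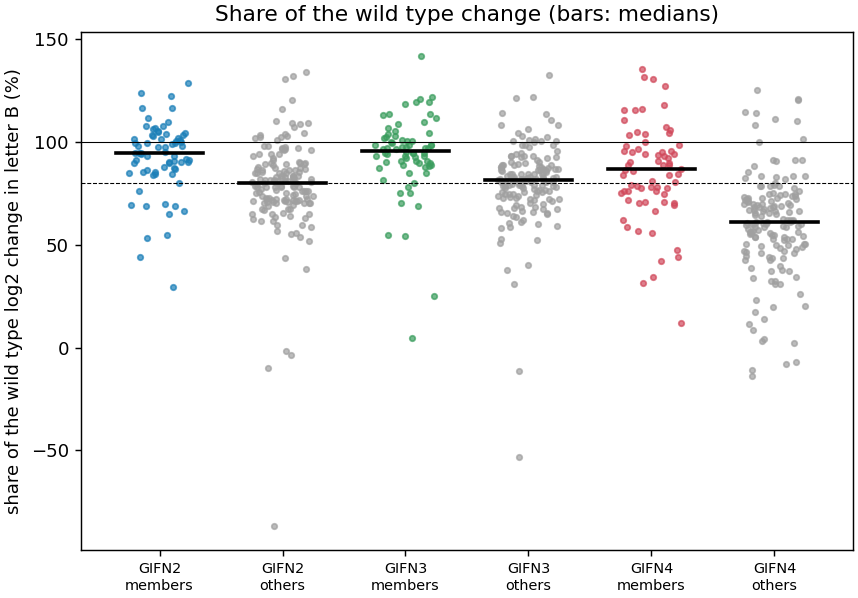
Share of the wild type B log2 ratio (vertical axis, percent) under GIFN2, GIFN3 and GIFN4 for each member and for the 156 other induced lines, with thick bars at the medians, a solid line at 100% and a dashed line at 80%. The members' medians are 94.8%, 95.6% and 86.7%, those of the other lines 79.9%, 81.2% and 60.9%.

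A share of a log2 ratio is not a share of the transcript level, and the gap grows with the size of the rise. On the linear scale GIFN4 B was at a median of 80.7% of the wild type B level over the members, and 35 of the 70 stood at 80% or more. The other induced lines had a median level of 40.2%, with 17 of 156 at 80% or more. Over all lines tested the median level was 100%, with 10679 of 13276 at 80% or more. Line 14 shows the distance: its log2 ratios in B were 6.27, 5.35, 5.67 and 4.76, so that GIFN4 kept 76.0% of the log2 ratio but 35.2% of the level. Line 46, by contrast, was at 4.33, 4.54, 4.62 and 4.52 in the same order, and its GIFN4 level was 114% of wild type.

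Differences between proteins in letter B were small next to those of the other induced lines. GIFN4 minus wild type had a median of -0.31 on the log2 scale over the members, with 55 of the 70 below 0, and of -1.32 over the other lines, with 147 of 156 below 0. Over all lines tested the median was 0.00 and 47.2% were below 0. GIFN4 was at least 2-fold below wild type in 11 members, against 2.32% of the lines tested, and in 105 of the other induced lines. GIFN2 minus wild type had a median of -0.13. It was below 0 in 47 members, against 50.4% of the lines tested, and at least 2-fold below in 3, against 1.38%. GIFN3 minus wild type also had a median of -0.13. It was below 0 in 48 members, against 48.4%, and at least 2-fold below in 4, against 0.919%. In none of these comparisons did a member stand at least 2-fold above wild type, where 0.482% (GIFN2), 0.505% (GIFN3) and 2.24% (GIFN4) of the lines tested did.

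Among the analogues, GIFN4 was the lowest for most members. GIFN4 minus GIFN2 had a median of -0.18 in B. It was below 0 in 51 of 70 members (44.3% of the lines tested) and at least 2-fold below in 2 (0.851%). GIFN4 minus GIFN3 had a median of -0.21, with 57 below 0 (45.6%) and 1 at least 2-fold below (0.663%). Among the other induced lines these medians were -0.63 and -0.70. GIFN4 was the lowest of the 4 proteins in 48 members (68.6%), in 87.2% of the other induced lines and in 27.6% of the lines tested. Wild type was the highest in 38 members (54.3%), in 84.0% of the other induced lines and in 31.6% of the lines tested. The order of wild type above GIFN2 and GIFN3 above GIFN4 was thus present in the members, with smaller steps. The 4 values spanned a median of 0.51 in the members, 1.40 in the other induced lines and 0.37 in the lines tested. They lay within 0.5 of each other in 33 members and in 8816 of the 13276 lines tested.

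The part that members made up of the 226 induced lines was similar over most sizes of the wild type rise in letter B. Members were 35.9% of the lines with a wild type B ratio of 1 to 2, 37.5% of those at 2 to 3, 33.9% of those at 3 to 4 and 12.7% of those at 4 or more, where 7 members stood beside 48 other lines. By wild type A, on which the members were chosen, the parts were 41.1% at 2 to 3, 23.9% at 3 to 4 and 14.3% at 4 or more, as a description of the choice. Within each wild type A band the members had the higher median GIFN4 share in B. At 2 to 3 it was 86.0% over 51 members and 61.0% over 73 other lines. At 3 to 4 it was 88.6% over 11 members and 58.5% over 35 other lines, and at 4 or more 91.1% over 8 members and 61.4% over 48.

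The 6 members with the highest mean in B were lines 8, 14, 46, 28, 34 and 26. Line 8 was the highest member, with log2 ratios of 6.52, 5.74, 6.13 and 5.66 in A, and 6.91, 6.19, 6.69 and 6.14 in B. Its wild type value was the highest of the 4 in both letters and GIFN4 the lowest. Line 28 gave 5.09, 4.98, 5.12 and 5.17 in A and 4.39, 4.18, 4.32 and 4.20 in B, with all 4 proteins lower in B than in A. Line 26 had 3.99, 4.07, 4.03 and 3.92 in B, a range over the 4 of 0.15, while in A it ran from 5.14 under wild type to 4.49 under GIFN4. Line 34 had 4.15, 4.14, 4.13 and 3.88 in B, and 4.69, 4.31, 4.40 and 4.05 in A, with GIFN4 the lowest in both letters. In 5 of these 6 lines GIFN4 B kept more than 0.8 of the wild type log2 ratio, with line 14 the exception.

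In 15 members GIFN4 B stood above wild type B, as it did in 24 of all 226 induced lines and in 6526 of the 13276 lines tested. The 5 largest of these differences were in lines 167, 158, 221, 172 and 98, at 0.60, 0.58, 0.56, 0.51 and 0.43 on the log2 scale. Line 167 had log2 ratios in B of 1.97, 2.29, 2.33 and 2.57, and 2.34, 2.32, 2.54 and 2.66 in A. Line 158 had 1.85, 2.03, 2.10 and 2.43 in B, and 2.43, 2.71, 2.55 and 2.75 in A. In both lines GIFN4 was the highest of the 4 proteins in each letter, and all 4 values were lower in B than in A. In line 172 the sign differed between letters, with GIFN4 0.28 below wild type in A.

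The 5 largest deficits in B were in lines 130, 122, 107, 93 and 73, with GIFN4 minus wild type at -2.02, -1.997, -1.83, -1.71 and -1.65. In letter A the same differences were -0.15, -0.08, -0.33, -0.52 and -0.01, where these lines kept at least 0.8 of the wild type log2 ratio. Line 130 had 2.71, 3.03, 3.14 and 2.57 in A, but 3.51, 2.43, 2.47 and 1.48 in B. Line 122 had 2.81, 3.48, 3.41 and 2.73 in A, but 3.804, 2.65, 2.62 and 1.81 in B. In both lines wild type was higher in B than in A while all 3 analogues were lower, so the gap to wild type opened from both sides. GIFN4 was the lowest of the 4 proteins in both letters of these 2 lines.

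Some members rested on few reads. Values of a letter were matched to whole read numbers, which is possible only where the untreated library had few reads for a line. A match was found for 24 members in letter A and 20 in B, and for 0 and 0 after the values were shifted by 0.05 as a control. In all, 25 of the 70 members matched in at least 1 letter, at 10 to 41 untreated reads with a median of 10. Among the other induced lines 56 of 156 matched, at 10 to 30, and 5 in A and 3 in B matched after the shift. The largest rises cannot be searched this way, which left 63 of 70 members searchable in each letter, at 10 untreated reads at least. The search of a line ended early where the summed chance of a match passed its limit. A line without a match can therefore still have had few reads. Line 107, for example, matched 10 untreated reads in both letters, with 67, 84, 121 and 60 reads in A, against 102, 72, 112 and 31 in B. Line 122 matched 10 untreated reads in both letters too, with 62, 105, 115 and 66 reads in A and 148, 64, 78 and 40 in B.

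Members with and without such a match differed in how well letter B followed letter A. Of the 25 with a match, 11 kept at least 0.8 under GIFN4 in B, with a median share of 77.5%, and 5 of them were under 0.5. Of the 45 without a match, 31 kept at least 0.8, with a median of 88.9%, and 1 (line 130, named after its values were seen) was under 0.5. The difference between letters had a median size under GIFN4 of 0.76 in the 25 and 0.16 in the 45, and under wild type of 0.39 and 0.25. The other induced lines without a match had a median share of 65.6% in B. Of the 156 other induced lines, 129 in A and 125 in B could be searched. Lines without a match can therefore include lines with few reads. The part of read number in these differences was not tested.

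**Figure D4:**
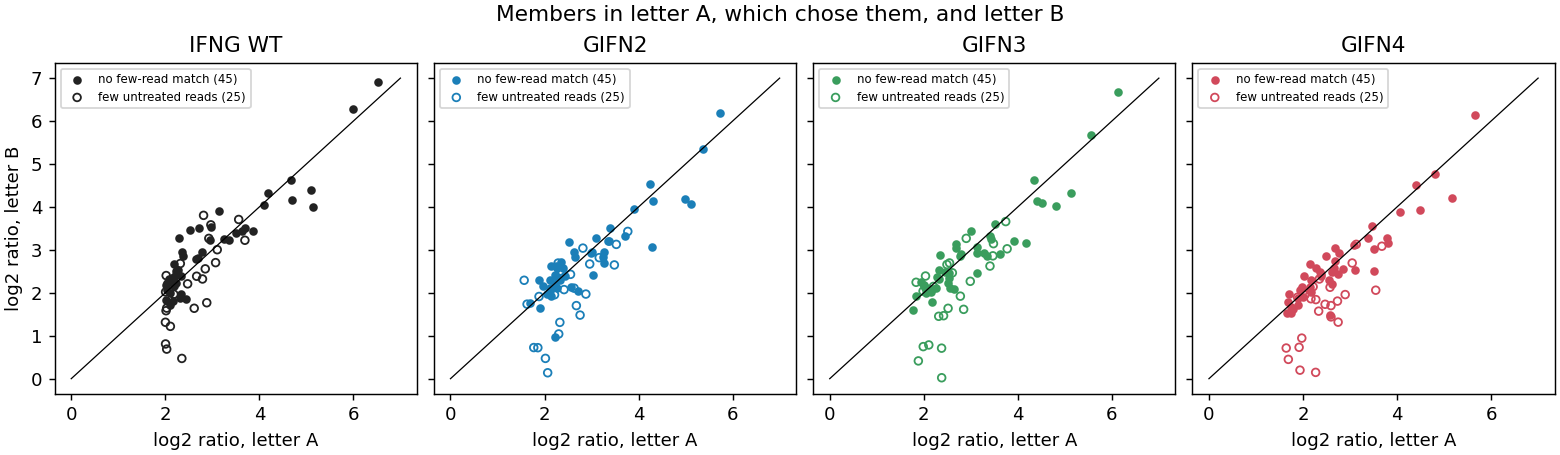
Letter B against letter A log2 ratios of the 70 members under each protein, with open circles for the 25 members matched to few untreated reads, filled circles for the other 45, and a line of equal values. Most points far below the line are open circles, and letter A values are cut at the left for wild type because the rule begins at 2.

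The 4 members with the lowest mean in B were lines 166, 216, 213 and 225, all of them matched to few reads in at least 1 letter. Line 166 had log2 ratios of 2.35, 2.07, 2.38 and 2.27 in A, but 0.47, 0.14, 0.02 and 0.15 in B. Its 14 untreated reads in A stood against 63, 55, 79 and 67 treated reads. Line 216 had 2.03, 2.02, 1.99 and 1.64 in A and 0.69, 0.47, 0.75 and 0.71 in B, and its matched untreated reads were 10 in A and 24 in B. For line 213 the wild type ratio was 2.03 in A and 1.64 in B, while GIFN4 went from 1.94 to 0.20. All 4 proteins stood at least 1 log2 unit lower in B than in A in 2 members, lines 166 and 224, and in 41 of the 13276 lines tested. These 4 ratios share the untreated library of their letter, and the rule asked for a high wild type value in A.

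Lines kept in both letters were fewer. Applying the same rule to letter B gave 48 lines out of 224 induced there, and 29 lines were chosen by both letters, which is 41.4% of the letter A choice and 60.4% of the letter B choice. These 29 include lines 8, 26, 28, 34 and 46. Their wild type log2 ratios ran from 2.01 to 6.52 in A and from 2.02 to 6.91 in B, with medians of 2.66 and 2.86, and their GIFN4 ratios had medians of 2.67 and 2.85. Both letters chose these lines, so their shares are no result. Line 187 was the most even member across proteins, with 2.16, 2.15, 2.17 and 2.13 in B, a range of 0.04 (named after its values were seen).

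Among the fitted comparisons, only GIFN3 against GIFN2 contrasts libraries that the rule did not use. Its errors, however, come from the fit to all groups, which includes the wild type A and GIFN4 A values that the rule read. The fitted difference is thus free of the choice, but its interval and p-value are not. No member passed the test in this comparison (limma, adjusted p under 0.05): 0 of 70 were called, as were 0 of the 13276 lines tested (0%), and 2 members had an unadjusted p under 0.05, which is 2.86% of them against 3.75% of the lines tested. GIFN3 was higher in 53 members and lower in 17, with a median fitted log2 difference of 0.07. Over all 13276 lines tested it was higher in 7036 and lower in 6124, with a median of 0.01. In letter B alone GIFN3 was higher in 41 members and lower in 29, against 6832 and 5962 of the lines tested. The 95% interval of a member had a median half-width of 0.41, and for 60 members it lay between -1 and 1. These counts therefore do not show that the 2 analogues act alike on the members. That width is before adjustment, and differences well above it can go uncalled. Fitted differences over all lines tested ran from -1.32 to 1.48, and none was called.

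The largest differences between GIFN3 and GIFN2 among the members were in lines 173, 8, 193 and 37 on the positive side. Line 173 had a fitted difference of 0.47 ± 0.25 (SE, n = 2; adjusted p = 1, limma), and line 8 one of 0.44 ± 0.16 with a 95% interval of 0.07 to 0.82. For line 8 GIFN3 was the higher in both letters, at 6.13 against 5.74 in A and 6.69 against 6.19 in B. Line 193 had 0.38 ± 0.29, with GIFN3 above GIFN2 in B (1.78 against 0.97) but not in A (2.17 against 2.22). Line 37 stood at 0.37 ± 0.17. On the negative side were lines 219, 114, 137 and 224, at -0.41 ± 0.14, -0.35 ± 0.26, -0.24 ± 0.14 and -0.23 ± 0.33. Line 219 was lower under GIFN3 in both letters, at 1.99 against 2.33 in A and 2.04 against 2.51 in B, and rested on 14 and 10 untreated reads.

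**Figure D5:**
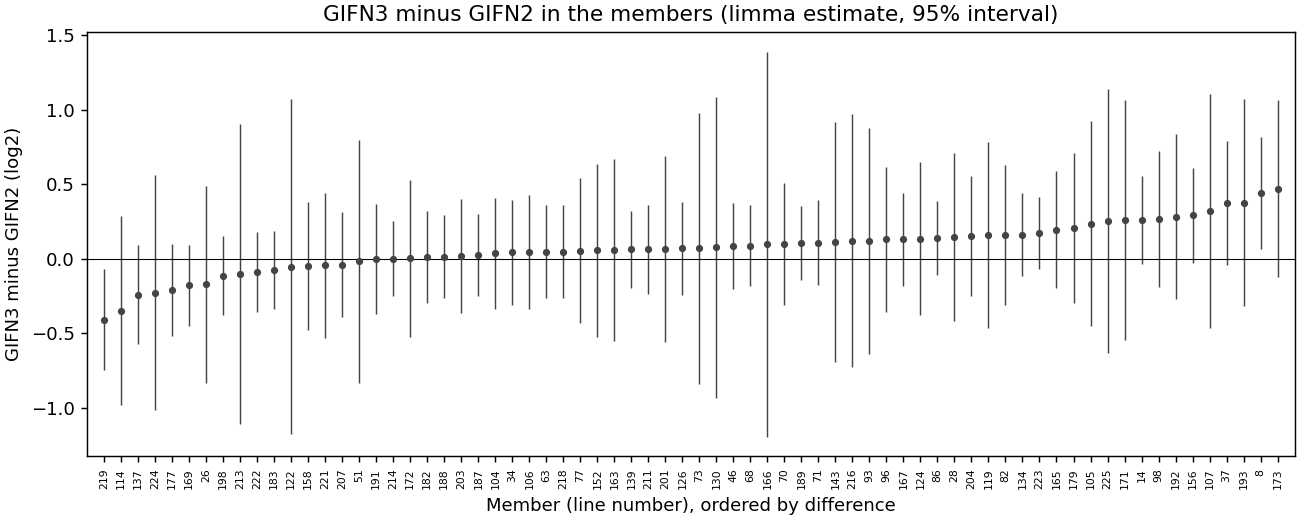
Fitted GIFN3 minus GIFN2 log2 difference (vertical axis) of the 70 members (horizontal axis, line numbers ordered by the difference), with 95% intervals from limma over all lines tested. Estimates run from -0.41 in line 219 to 0.47 in line 173, and 0 of 70 passed an adjusted p of 0.05.

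The other fitted comparisons include letter A libraries that chose the members, and their calls are a description with nothing read from them. Against untreated cells 69 members were called higher under wild type (15.6% of all lines tested). The counts were 68 for GIFN2 (14.8%), 68 for GIFN3 (15.4%) and 66 for GIFN4 (13%). The exception under wild type was line 166, whose fitted rise was 1.41 ± 0.54 on the log2 scale (SE, n = 2, with limma's adjusted p = 0.0862). Lines 166, 213, 216 and 225 were the 4 not called under GIFN4. Against wild type no member was called lower under GIFN2 or GIFN3 in limma (0% of the lines tested in each). An unadjusted limma p under 0.05 in either direction was found in 9 and 2 members, against 990 and 927 of the 13276 lines tested. GIFN4 was called lower than wild type in 5 members (1.66% of the lines tested) and higher in 0 (2.56%). For GIFN4, 28 members were at an unadjusted limma p under 0.05 in either direction, against 2671 of the lines tested. The 5 were lines 14, 37, 8, 134 and 86, with differences of -1.35, -1.13, -0.82, -0.66 and -0.55. Without GIFN4 A, or without GIFN4 B, 1 member was called lower, and 1 without the replicate letter in the fit.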

How the data were processed

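RNA libraries were made with the AmpliSeq human transcriptome kit and read on an Ion S5 XL, per the labels' protocols and the series' design text. Per the submitters' processing notes, hg19 was the genome build. The counting and scaling of reads are not given in the sources used here. Values deposited by the authors are log2 values, headed log2(DER). As the untreated files hold only 0, each value was taken as a treated library over its letter's untreated one. Some headers name another comparison (wild type against an analogue), and groups follow the labels. Files were joined by position.

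The members, lists and tests were chosen with earlier results of these data known. Lines were named by position: the 6 highest and 4 lowest means in B, the 5 highest and 5 lowest GIFN4 minus wild type in B, the 4 highest and 4 lowest fitted GIFN3 minus GIFN2, and 3 lines on each side of each threshold. Other lines named were chosen after their values were seen. No gene list could be read because names and values are not paired.

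The fit used limma 3.58.1 in R 4.3.3 (group and letter, untreated columns at 0, robust empirical Bayes, Benjamini-Hochberg over 13276 lines, threshold 0.05, 4 residual degrees of freedom). It was also run on simulated data, for GIFN3 against GIFN2 only. Those data gave all libraries of a line independent errors of equal size. They therefore cannot check the fit under the unequal correlations given below. The letter is in the model because the ratios of a letter share an untreated library. The A minus B deviations of the lines tested correlated at 0.0296 to 0.182 for wild type with an analogue and at 0.650 to 0.700 for pairs of analogues. Over the 70 members, which were chosen on letter A, the same correlations were 0.469 to 0.641 and 0.794 to 0.902. The model gives all pairs of proteins the same error structure, so its errors may be too small against wild type and too large between analogues.

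Absolute depth is unknown. For the read matches, a library's commonest value apart from 0 was taken as equal reads in both libraries of its ratio. The 4 values of a line had to fall within 0.0012 of whole reads, at 10 or more. Untreated reads were tried from 10 up to at most 100, and the search of a line ended where the summed chance passed 0.005. Many matches stand at exactly 10 untreated reads (14 of 24 members in A and 11 of 20 in B), and a floor at that number would bring ratios nearer to 0. The labels name no molecular identifiers.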

Additional observations from a re-analysis of the deposited data

How the results depend on the processing

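Under the 8 alternatives the median shares kept were 91.2% to 98.0% for GIFN2, 94.4% to 99.1% for GIFN3 and 79.5% to 92.4% for GIFN4. They were read in letter B, or in letter A where lines were chosen in B. All moved by less than the spread of a single member between letters (1 SD, taken as the members' median). A median over many lines varies less than a single line, so this limit is loose. Members with GIFN4 at 0.8 or more of wild type were 50% to 75%. The median of GIFN4 minus wild type stayed below 0 throughout (-0.56 to -0.17), while GIFN3 minus GIFN2 ran from -0.01 to 0.07 and changed sign where linear levels were used. A wild type value of at least 1.5 gave 137 members, with median log2 ratios in B of 2.01 (wild type), 1.88 (GIFN2), 1.90 (GIFN3) and 1.73 (GIFN4). At least 2.5 gave 34, with 3.45, 3, 3.10 and 2.71, and medians of -0.56 for GIFN4 minus wild type and -0.36 for GIFN4 minus GIFN3. A share of at least 0.7 gave 108 members and of at least 0.9 gave 41, the latter with -0.10 for GIFN4 minus GIFN3. Choosing in letter B and reading letter A gave medians of 2.71 for GIFN3 and 2.55 for GIFN4. Leaving out the members matched to few reads (chosen after seeing the data) left 45, with medians of 2.86 (wild type), 2.85 (GIFN3) and 2.495 (GIFN4). The cause of these moves was not tested, beyond each alternative's own choice of lines.

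In the fit with no replicate block, 1 member in place of 5 was called lower under GIFN4 than wild type, and 0 were called between GIFN3 and GIFN2. With the block, leaving out 1 library gave 1 to 6 members lower under GIFN4 and 0 to 1 higher (the 1 without wild type B). An arm with 1 library left is assumed to vary like the others. GIFN3 minus GIFN2 in line 193 ran from -0.14 without GIFN2 B to 0.89 without GIFN2 A. No member was called different between GIFN3 and GIFN2 in the alternative fits that kept both libraries of each protein. Letter B has 1 library per protein, so none could be left out of its values.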
